A study of Homo sapiens with 24 samples.

Results

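The p53 target genes outside the CDKN1A and MDM2 loop and the BCL2 family were followed through a time course of mRNA loss. The set is a list of 35 gene symbols known as p53 targets, taken by name from the deposited table, out of 22925 symbols in all. All 35 were in the table and 33 were among the 7860 genes tested. CYFIP2, a subunit of the WAVE complex, and SPATA18, a protein of mitochondrial quality control, averaged 0.04 and 0.001 FPKM and were too low to test. The members were grouped as 8 antioxidant and metabolic genes, 5 genes of DNA repair, 11 tested genes of death receptor signalling, apoptosis and autophagy, and 9 genes of signalling and other functions.

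The libraries came from U2OS, a human osteosarcoma cell line. Cells received siRNA labelled for the long isoform of PAN3, siRNA labelled for the short isoform, both siRNAs, or control siRNA, and actinomycin D, which blocks transcription, was then applied for 0, 0.5, 1, 2, 4 or 6 h. Cytoplasmic RNA was sequenced as 1 library for each siRNA and time, giving 24 libraries in 4 series of 6. PAN3 carries the nuclease PAN2 to mRNA, where the pair trims poly(A) tails, and the design asks how mRNA turnover changes when either isoform is depleted.

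p53 is a transcription factor that is held low by the ubiquitin ligase MDM2 and accumulates when DNA is damaged, ribosome production fails or other stress arises. It then binds paired decamer elements in promoters and introns and raises transcription of genes that arrest the cycle, repair DNA, limit growth signalling and metabolism, or start apoptosis. The abundance of such an mRNA depends on its synthesis and on its loss. Many early response mRNAs, among them several p53 targets, carry AU-rich elements in their 3′ untranslated regions (UTRs) and are lost quickly.

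Values are FPKM, fragments scaled to transcript length and to the mapped reads of a library, summed over the transcripts of a gene. The FPKM of a library summed to between 324072.2 and 384287.0, and since the table gives no read totals, depth is unknown. PAN3 averaged 0.898 ± 0.556 FPKM in the long-labelled, 2.51 ± 0.901 in the short-labelled and 1.45 ± 0.759 in the both-labelled series, against 0.988 ± 0.847 in the control series (SD, n = 6 libraries each). PAN3 was thus not lower than control beyond the spread between libraries, and its mean was highest in the short-labelled series. A total per gene cannot show the depletion of either isoform alone. The series are named by their labels. PAN2 was listed at 0 in 1 of 6 long-labelled, 5 of 6 short-labelled and 5 of 6 both-labelled libraries, against none in the control series, where it held 8.5 to 11.9 FPKM. Its highest value was 9.10 FPKM in the long-labelled, 6.12 in the short-labelled and 5.83 in the both-labelled series, and an exact 0 in this table can be a failed estimate. Of the 11 markers of epithelial, blood, endothelial and nervous cells, 10 stayed at or below 0.62 FPKM, while the endothelial marker CDH5 reached 3.12. Of the 8 mesenchymal markers, SPARC, COL1A2, RUNX2, FN1 and THY1 had medians of 0.45 FPKM or less. VIM ranged over 400.4 to 661 FPKM in the long-labelled, 679.5 to 956 in the short-labelled and 481.5 to 893 in the both-labelled series, against 0 to 554 in the control series. COL1A1, listed at 0 in 7 of the 24 libraries, reached 72.1, 217 and 129 FPKM in the long-, short- and both-labelled series, against 24.4 in the control series. COL5A1 averaged 81.9 ± 12.2 FPKM in the long-labelled, 68.6 ± 29.4 in the short-labelled and 62.1 ± 19.6 in the both-labelled series, against 42.1 ± 8.05 in the control series (SD, n = 6 libraries each). VIM and COL1A1 reached their highest values in the short-labelled series and COL5A1 its highest mean in the long-labelled series, and their part in the results was not tested. In bulk RNA, fewer cells that express a gene and less RNA per cell cannot be told apart.

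Promoter windows were read for elements of the p53 type. RefSeq windows (GRCh38.p14) of 300 bases, from 250 before to 50 after the transcript start, were matched for 27 of the 35 members. Both strands were searched for the consensus decamer half-site of p53, which reads the same on either strand, and for a full element of 2 half-sites with intact core bases, up to 2 mismatches outside the cores and a spacer of up to 13 bases. The full element was found in 1 of 27 members (3.70%) and in 66 of 6324 tested genes with a window (1.04%). An exact half-site was found in 4 of 27 members and in 315 of the 6324 genes (4.98%). The 4 windows that hold one are shown 5′ to 3′ on the strand of the gene, with the matching bases in capitals. The AEN match is the full element, with 2 mismatches and no spacer, and it contains its half-site.
AEN, chr15:88621286-88621345, plus strand: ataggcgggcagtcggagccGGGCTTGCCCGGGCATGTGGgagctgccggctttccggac
FDXR, chr17:74872976-74873025, minus strand: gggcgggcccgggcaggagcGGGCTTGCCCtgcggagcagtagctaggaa
PLK2, chr5:58460189-58460238, minus strand: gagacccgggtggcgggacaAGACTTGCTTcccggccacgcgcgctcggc
RPS27L, chr15:63157507-63157556, minus strand: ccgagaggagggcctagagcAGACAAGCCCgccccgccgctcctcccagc
A match describes letters in the window, and elements in introns or farther upstream lie outside it.

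Most p53 target mRNAs were more abundant in the short-labelled and both-labelled series than in the control series, and the same 25 genes were higher in both. The share of all genes higher in both was not counted. The members were chosen with earlier results of these data known, so the counts below describe the list and do not test it. In the short-labelled series 25 of 33 members were higher and 3 were lower, where 32.7% of all genes tested were higher and 30.7% were lower. The counts in the both-labelled series were also 25 higher and 3 lower, against 33% and 29% of all genes. In the long-labelled series 8 members were higher and 13 lower, beside 27.1% and 24.1% of all genes. The direct comparison of the short-labelled with the long-labelled series had 27 members higher and 2 lower, beside 31.7% and 32.3% of all genes.

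These levels were compared in limma as log2(FPKM + 0.1) relative to the median of the tested genes in each library, over the 6 times together, and a gene was called at a Benjamini-Hochberg adjusted p under 0.05 over all 7860 genes. The median difference of the members from control was -0.14 in the long-labelled, 0.93 in the short-labelled and 0.75 in the both-labelled series, with medians over all genes of 0.026, 0.030 and 0.034. Members in the short-labelled series exceeded the long-labelled by a median of 0.92, where all genes had -0.0077. The 3 comparisons with control share the 6 control libraries. The p-values measure the scatter of time points about a course inside series, each possibly made from 1 transfection, so a difference between siRNAs and one between transfections cannot be told apart.

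The differences were present before transcription was blocked. At 0 h 27 of 33 members were above control in the short-labelled library, with a median difference of 0.87, and 27 in the both-labelled library, with a median of 0.71. In the long-labelled library of 0 h 14 members were above control and the median was -0.065. Over the 6 times the count above control ran from 26 to 28 in the short-labelled, from 25 to 29 in the both-labelled and from 12 to 16 in the long-labelled series. Over all genes between 49.5% and 53.1% were above control in any of these libraries.

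**Figure D1:**
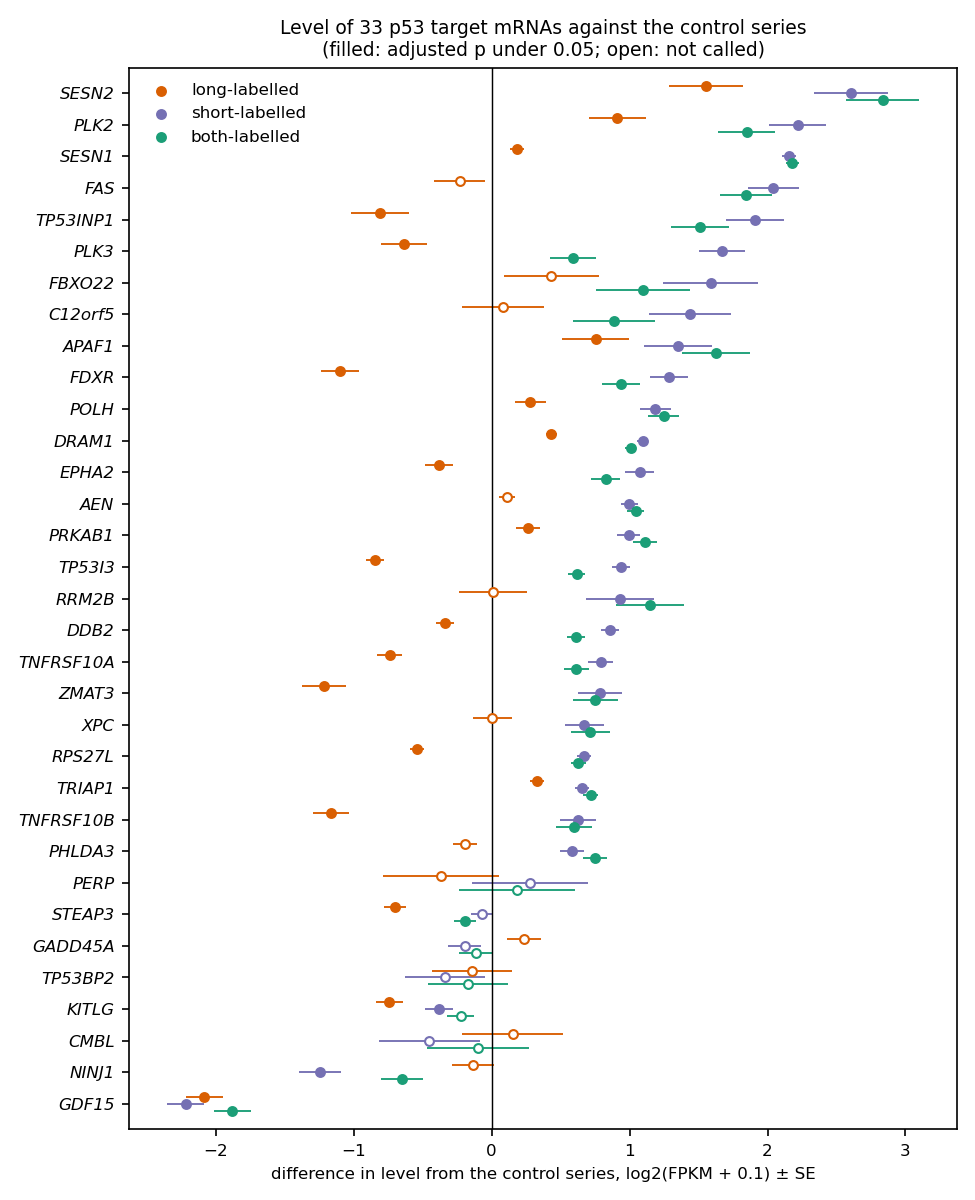
Level differences of the 33 tested members from the control series, in log2(FPKM + 0.1) relative to the library median, with SE bars, for the long-, short- and both-labelled series from top to bottom within each gene. Filled points have a limma adjusted p under 0.05. The short-labelled and the both-labelled points each lie to the right of 0 for 26 genes and to the left for 7, while the long-labelled points lie to the right for 15 and to the left for 18.

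The antioxidant and metabolic genes include both sestrins, which limit oxidative stress and growth signalling. Of the 8 members, 6 were higher in the short-labelled and in the both-labelled series, and 3 were higher and 3 lower in the long-labelled series. The shares of all genes given above are the background of each role group's counts. SESN1, a sestrin that restrains mTORC1 signalling, had 34.2, 32.6, 31.2, 27.7, 24.9 and 23.2 FPKM at 0, 0.5, 1, 2, 4 and 6 h in the short-labelled series, and 33.7, 32.5, 30.2, 29.6, 26.8 and 25.2 in the both-labelled series. The long-labelled libraries held 9.63, 8.53, 7.63, 7.24, 6.41 and 5.89 FPKM, against 9.04, 8.26, 6.68, 6.78, 5.84 and 4.84 in the control libraries. All short-labelled and both-labelled libraries thus lay above all control libraries, with means at 4.19 and 4.29 times the control mean, while the long-labelled range overlapped the control range. The differences of SESN1 were 2.15 ± 0.049 in the short-labelled (limma adjusted p = 2.29e-16), 2.18 ± 0.049 in the both-labelled (adjusted p = 2.24e-16) and 0.18 ± 0.049 in the long-labelled series (adjusted p = 0.00456).

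SESN2, the second sestrin, was the member with the largest level difference. It had 16.0, 13.01, 9.83, 5.92, 4.38 and 3.85 FPKM at the 6 times in the long-labelled series, 22.6, 19.1, 16.2, 13.8, 12.2 and 12.1 in the short-labelled and 25.1, 21.7, 19.3, 16.1, 15.3 and 15.2 in the both-labelled series, against 10.4, 6.09, 3.2, 1.62, 0.91 and 1.02 in the control series. All short-labelled and both-labelled values lay above the highest control value. The gap to control widened after 0 h as a ratio, not in FPKM. The log2 difference rose from 1.23 at 0 h to 3.64 at 4 h in the short-labelled series. In the both-labelled series it rose from 1.36 to 3.96. Levels differed from control by 1.56 ± 0.27 in the long-labelled (limma adjusted p = 9.38e-05), 2.60 ± 0.27 in the short-labelled (adjusted p = 1.45e-07) and 2.83 ± 0.27 in the both-labelled series (adjusted p = 5.22e-08).

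FDXR, the ferredoxin reductase of mitochondria, went opposite ways. Short-labelled libraries held 22.4, 28.8, 30.0, 33.9, 38.1 and 39.8 FPKM and both-labelled libraries 20.6, 23.7, 25.7, 25.6, 25.3 and 30.8, and long-labelled libraries held 5.26, 6.71, 7.60, 7.21, 6.17 and 4.53, against 13.5, 12.8, 15.7, 10.6, 13.4 and 17.3 in the control series. No long-labelled value reached the lowest control value, and every short-labelled and both-labelled value exceeded the highest. The short-labelled difference was 1.28 ± 0.14 (limma adjusted p = 2.47e-07), the both-labelled 0.94 ± 0.14 (adjusted p = 1.15e-05) and the long-labelled -1.10 ± 0.14 (adjusted p = 2.78e-06). TP53I3, a quinone oxidoreductase also called PIG3, behaved likewise, with 30.7 to 40.2 FPKM (median 37.0) in the short-labelled, 25.6 to 33.3 FPKM (median 29.5) in the both-labelled and 9.31 to 11.3 FPKM (median 10.9) in the long-labelled series, against 16.4 to 23.8 FPKM (median 19.99) in the control series. Its differences were 0.94 ± 0.063 in the short-labelled (limma adjusted p = 5.23e-10), 0.62 ± 0.063 in the both-labelled series (adjusted p = 1.57e-07) and -0.85 ± 0.063 in the long-labelled (adjusted p = 3.87e-09).

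PRKAB1, a regulatory subunit of the energy sensor AMPK, ranged over 7.40 to 11.2 FPKM (median 9.14) in the long-labelled, 9.85 to 21.5 FPKM (median 15.1) in the short-labelled and 10.3 to 22.2 FPKM (median 16.8) in the both-labelled series, against 5.96 to 10.1 FPKM (median 7.84) in the control series. The gene was higher in all 3 series, by 0.27 ± 0.086 in the long-labelled (limma adjusted p = 0.0154), 0.99 ± 0.086 in the short-labelled (adjusted p = 1.64e-08) and 1.11 ± 0.086 in the both-labelled series (adjusted p = 3.78e-09), and its long-labelled call was lost without the long-labelled 4 h library (adjusted p = 0.0516), the 2 h libraries (0.0518) or the 4 h libraries (0.0581). C12orf5 encodes TIGAR, which lowers glycolytic flux. It had 11.8, 11.9, 12.2, 4.94, 11.8 and 12.5 FPKM in the short-labelled and 4.66, 4.33, 11.8, 4.11, 11.6 and 11.6 in the both-labelled series, against 4.90, 3.39, 7.76, 4.22, 2.97 and 2.57 in the control series, so that the 2 h value of the short-labelled series and 3 of the both-labelled values fell within the control range. Its differences were 1.44 ± 0.30 in the short-labelled (limma adjusted p = 0.000403) and 0.89 ± 0.30 in the both-labelled series (adjusted p = 0.0153). The both-labelled call was lost without the both-labelled 4 h library (adjusted p = 0.0529) or the control 6 h library (0.0507), and up to 0.0964 without all 6 h libraries, and the long-labelled difference was 0.079 ± 0.30 (adjusted p = 0.846).

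STEAP3, an endosomal iron reductase, was lower in the long-labelled series, with 8.42 to 11.8 FPKM (median 10.6) against 16.0 to 19.4 FPKM (median 17.7) in the control series and no overlap (-0.70 ± 0.079, limma adjusted p = 7.54e-07). The short-labelled libraries held 13.4 to 18.2 FPKM (median 15.7), a difference of -0.07 ± 0.079 (adjusted p = 0.458). The both-labelled difference of -0.19 ± 0.079 (adjusted p = 0.0436) was lost in 16 of 30 fits that left out 1 time or 1 library, up to an adjusted p of 0.109 without the 2 h libraries. The 2 STEAP3 transcripts with values went opposite ways. One held 4.81 to 8.72 FPKM in the short-labelled and 5.025 to 7.78 in the both-labelled series, against 9.48 to 12.8 in control. The other held 7.705 to 10.7 and 7.61 to 9.47 FPKM, against 5.715 to 6.77 in control. CMBL, a hydrolase, ran between 6.74 and 39.6 FPKM among the long-labelled libraries alone and was called in no level comparison.

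**Figure D2:**
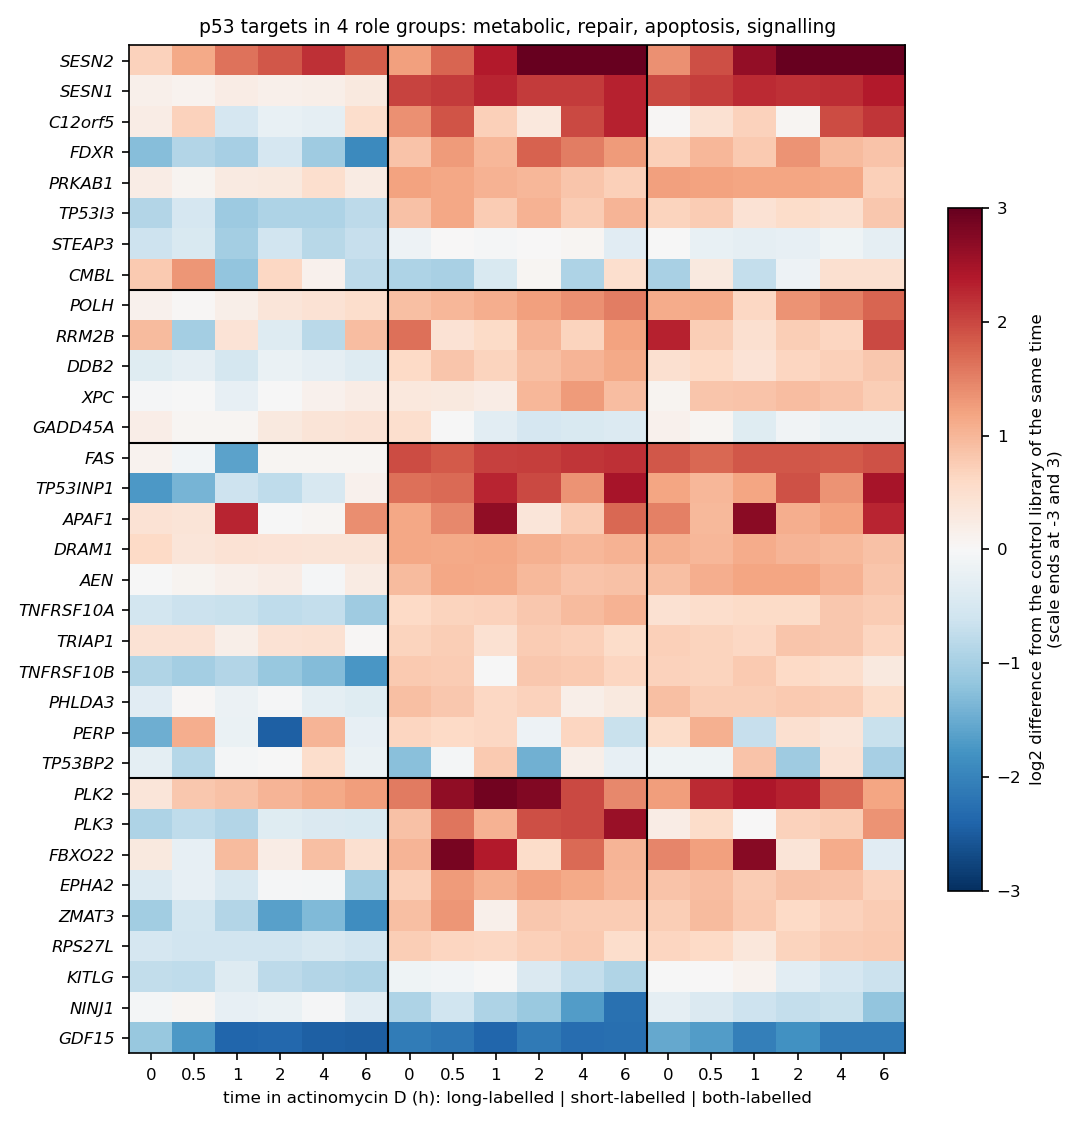
Difference of each library from the control library of the same time, in log2(FPKM + 0.1) relative to the library median, for the 33 tested members (rows, in the 4 role groups from metabolic to signalling) in the long-, short- and both-labelled series (blocks of 6 columns by time in actinomycin D). Red is above and blue below control, and the scale ends at -3 and 3. The red of the short-labelled and both-labelled blocks is already there at 0 h.

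Of the 5 genes of DNA repair, 4 were higher in the short-labelled and both-labelled series, and 1 was higher and 1 lower in the long-labelled series. DDB2, which recognises damaged bases in nucleotide excision repair, had 27.3, 30.6, 32.9, 34.8, 38.1 and 38.5 FPKM in the short-labelled and 25.5, 26.1, 27.6, 29.2, 31.3 and 31.7 in the both-labelled series. It had 14.4, 14.9, 14.8, 16.4, 15.6 and 13.9 FPKM in the long-labelled series, against 19.6, 18.7, 21.8, 19.6, 19.4 and 18.3 in the control series. The control libraries thus lay between the long-labelled libraries below and the others above, without overlap. The differences were 0.86 ± 0.065 in the short-labelled (limma adjusted p = 2.41e-09), 0.61 ± 0.065 in the both-labelled (adjusted p = 2.22e-07) and -0.34 ± 0.065 in the long-labelled series (adjusted p = 0.000284).

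XPC, its partner in damage recognition, had 14.5 to 25.4 FPKM (median 16.6) in the short-labelled and 13.1 to 24.4 FPKM (median 21.4) in the both-labelled series, against 7.94 to 14.9 FPKM (median 13.8) in the control series, with overlapping ranges. XPC was higher by 0.67 ± 0.14 in the short-labelled (limma adjusted p = 0.000412) and 0.72 ± 0.14 in the both-labelled series (adjusted p = 0.000239), and its long-labelled difference was 0.0057 ± 0.14 (adjusted p = 0.98). POLH, the translesion polymerase eta, was listed at 1.92 to 3.70 FPKM (median 2.95) in the long-labelled, 3.75 to 6.20 FPKM (median 5.39) in the short-labelled and 4.01 to 7.32 FPKM (median 5.27) in the both-labelled series, against 1.3 to 3.58 FPKM (median 2.50) in the control series. The short-labelled difference of POLH was 1.19 ± 0.11 (limma adjusted p = 4.88e-08) and the both-labelled 1.25 ± 0.11 (adjusted p = 2.72e-08), with every such library above every control library. Its long-labelled difference of 0.28 ± 0.11 (adjusted p = 0.0438) was lost in 18 of 30 fits that left out 1 time or 1 library, up to 0.131 without the 4 h libraries.

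RRM2B, the p53-inducible subunit of ribonucleotide reductase, ranged over 6.13 to 8.54 FPKM (median 7.31) in the short-labelled and 6.22 to 11.52 FPKM (median 8.87) in the both-labelled series, against 2.39 to 6.04 FPKM (median 4.53) in the control series, without overlap. Its differences were 0.93 ± 0.25 in the short-labelled (limma adjusted p = 0.00347) and 1.15 ± 0.25 in the both-labelled series (adjusted p = 0.000637), and 0.009 ± 0.25 in the long-labelled series (adjusted p = 0.982). GADD45A, a stress sensor of growth arrest, was not called against control: its differences were 0.24 ± 0.12 in the long-labelled, -0.20 ± 0.12 in the short-labelled and -0.11 ± 0.12 in the both-labelled series (limma adjusted p = 0.117, 0.173 and 0.436). It was lower in the short-labelled than in the long-labelled series, with a difference of -0.43 ± 0.12 (adjusted p = 0.00499, and 0.0593 with only those series fitted).

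Among 11 genes of death receptor signalling, apoptosis and autophagy, 9 were higher in the short-labelled and in the both-labelled series and none was lower, while 3 were higher and 3 lower in the long-labelled series, where 27.1% and 24.1% of all genes were. FAS, a death receptor, had 30.0, 30.7, 30.8, 32.3, 32.5 and 30.8 FPKM at the 6 times in the short-labelled and 28.6, 28.6, 26.8, 28.0, 26.7 and 26.2 in the both-labelled series. It had 8.56, 8.33, 2.41, 8.15, 7.63 and 7.25 FPKM in the long-labelled series, against 8.33, 9.25, 7.73, 8.05, 7.54 and 7.02 in the control series. The lowest short-labelled or both-labelled library held 26.2 FPKM, against 9.25 in the highest control library, and the course stayed flat over 6 h in all series apart from the long-labelled library of 1 h. Level differences of FAS were 2.04 ± 0.19 in the short-labelled (limma adjusted p = 3.66e-08), 1.84 ± 0.19 in the both-labelled series (adjusted p = 1.45e-07) and, in the long-labelled series, -0.23 ± 0.19 (adjusted p = 0.322). The table lists FAS as 7 transcripts, of which 2 had values. One was listed at 0 in all long-labelled and control libraries and at 4.59, 4.65, 5.15, 5.20, 5.93 and 7.07 FPKM in the short-labelled libraries. In the both-labelled series it was listed at 0 at 0 and 0.5 h and at 2.92, 3.84, 3.60 and 3.60 FPKM at 1, 2, 4 and 6 h.

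The TRAIL receptors differed between the short-labelled and long-labelled series in opposite directions from control. TNFRSF10A, TRAIL receptor 1, had 18.9, 18.5, 18.6, 18.02, 15.9 and 14.9 FPKM in the short-labelled and 8.78, 7.73, 7.40, 6.18, 4.86 and 3.53 in the long-labelled series, against 13.6, 12.6, 12.1, 10.9, 8.37 and 7.61 in the control series. All short-labelled values exceeded the control range, and long-labelled values fell below control at each of the 6 times. TNFRSF10A was higher by 0.79 ± 0.091 in the short-labelled (limma adjusted p = 6.23e-07) and by 0.61 ± 0.091 in the both-labelled series (adjusted p = 1.36e-05), and lower in the long-labelled series (-0.74 ± 0.091, adjusted p = 2.41e-06). TNFRSF10B, TRAIL receptor 2, had 39.0, 37.0, 35.8, 33.6, 28.6 and 25.5 FPKM in the long-labelled and 121, 122, 63.8, 126, 123 and 127 in the short-labelled series, against 76.2, 78.0, 67.8, 76.7, 73.3 and 86.0 in the control series. The long-labelled values were all below the lowest control value, and the short-labelled value of 1 h stood apart from the others of its series. Its differences were -1.16 ± 0.13 in the long-labelled (limma adjusted p = 9e-07), 0.63 ± 0.13 in the short-labelled (adjusted p = 0.000496) and 0.60 ± 0.13 in the both-labelled series (adjusted p = 0.000801).

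TP53INP1, a p53 cofactor that also acts in autophagy, held 0.52, 0.59, 0.59, 0.52, 0.48 and 0.54 FPKM in the long-labelled, 6.16, 5.53, 4.97, 3.90, 2.01 and 2.98 in the short-labelled and 4.44, 3.39, 2.21, 3.68, 2.03 and 3.10 in the both-labelled series, against 2.05, 1.79, 0.98, 0.97, 0.75 and 0.49 in the control series. The long-labelled course was flat near 0.5 FPKM, where the other courses began higher and declined. TP53INP1 was higher by 1.91 ± 0.21 in the short-labelled (limma adjusted p = 3.18e-07) and 1.51 ± 0.21 in the both-labelled series (adjusted p = 5.89e-06), and lower in the long-labelled series (-0.81 ± 0.21, adjusted p = 0.00345). DRAM1, a lysosomal protein that promotes autophagy, was steady, at 19.7 to 21.4 FPKM (median 20.6) in the long-labelled, 30.5 to 32.9 FPKM (median 31.6) in the short-labelled and 28.99 to 31.4 FPKM (median 29.8) in the both-labelled series, against 14.9 to 16.2 FPKM (median 15.8) in the control series. No treated range of DRAM1 overlapped the control range, and the differences were 0.43 ± 0.04 in the long-labelled (limma adjusted p = 5.46e-08), 1.10 ± 0.04 in the short-labelled (adjusted p = 1.05e-13) and 1.01 ± 0.04 in the both-labelled series (adjusted p = 3.54e-13).

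APAF1, the scaffold of the apoptosome, was low, with 2.71, 3.08, 3.26, 1.90, 1.68 and 1.80 FPKM in the long-labelled, 4.39, 6.26, 4.20, 2.42, 2.78 and 2.19 in the short-labelled and 5.73, 4.52, 4.26, 4.14, 3.86 and 3.40 in the both-labelled series, against 2.09, 2.43, 0.61, 2.01, 1.66 and 0.63 in the control series. Control values at 1 and 6 h were the lowest, and the both-labelled libraries all lay above the control range. APAF1 was higher by 0.75 ± 0.24 in the long-labelled (limma adjusted p = 0.0152), 1.35 ± 0.24 in the short-labelled (adjusted p = 0.000107) and 1.63 ± 0.24 in the both-labelled series (adjusted p = 1.52e-05), and the long-labelled call was lost without the 1 h libraries (0.0775), the 6 h libraries (0.076) or the long-labelled 1 h library (0.0504). AEN, a p53-induced exonuclease that enhances apoptosis, ranged over 18.9 to 74.8 FPKM (median 34.4) in the short-labelled and 18.9 to 73.5 FPKM (median 37.0) in the both-labelled series, against 10.7 to 41.8 FPKM (median 17.2) in the control series. Its courses declined in parallel, so the ranges overlapped although each short-labelled and both-labelled library exceeded its control of the same time. AEN differed from control by 1.00 ± 0.061 in the short-labelled (limma adjusted p = 1.29e-10) and 1.04 ± 0.061 in the both-labelled series (adjusted p = 7.85e-11), and by 0.11 ± 0.061 in the long-labelled series (adjusted p = 0.135).

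TRIAP1, an inhibitor of apoptosis, had 33.7 to 49.3 FPKM (median 42.7) in the long-labelled, 45.1 to 57.0 FPKM (median 51.7) in the short-labelled and 48.2 to 59.3 FPKM (median 54.0) in the both-labelled series, against 28.0 to 39.5 FPKM (median 34.8) in the control series. It was higher by 0.33 ± 0.052 in the long-labelled (limma adjusted p = 4.14e-05), 0.66 ± 0.052 in the short-labelled (adjusted p = 4.71e-09) and 0.72 ± 0.052 in the both-labelled series (adjusted p = 1.54e-09). PHLDA3, a repressor of AKT, had 41.1 to 115 FPKM (median 79.6) in the short-labelled and 55.0 to 116 FPKM (median 84.1) in the both-labelled series, against 37.4 to 66.6 FPKM (median 53.1) in the control series, with overlapping ranges. PHLDA3 was higher by 0.58 ± 0.087 in the short-labelled (limma adjusted p = 1.27e-05) and 0.75 ± 0.087 in the both-labelled series (adjusted p = 7.2e-07), and its long-labelled difference was -0.20 ± 0.087 (adjusted p = 0.068). PERP, a tetraspan membrane protein, and TP53BP2, a p53-binding protein also called ASPP2, were called in no level comparison. PERP jumped between 13.04 and 98.5 FPKM from library to library, with differences of -0.37, 0.28 and 0.19 in the long-, short- and both-labelled series. TP53BP2 differed by -0.14, -0.34 and -0.17 in the same series.

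Of the 9 genes of signalling and other functions, 6 were higher in the short-labelled and both-labelled series, and 3 were lower in the short-labelled and 2 in the both-labelled series. In the long-labelled series 1 was higher and 6 were lower, where 27.1% and 24.1% of all genes were. PLK2, a polo-like kinase, had 119.7, 50.1, 27.6, 15.6, 14.0 and 15.9 FPKM at the 6 times in the long-labelled, 266, 174, 110.3, 51.7, 25.2 and 17.0 in the short-labelled and 217, 130.0, 78.1, 37.3, 21.0 and 14.8 in the both-labelled series, against 97.8, 29.7, 15.4, 7.89, 6.53 and 6.60 in the control series. All courses dropped steeply, and at each of the 6 times all 3 series lay above control. PLK2 was higher by 0.91 ± 0.21 in the long-labelled (limma adjusted p = 0.00127), 2.22 ± 0.21 in the short-labelled (adjusted p = 4.21e-08) and 1.85 ± 0.21 in the both-labelled series (adjusted p = 4.6e-07). With time as a straight line, the long-labelled call was lost (adjusted p = 0.0666). PLK3, its paralogue, had 3.34, 2.44, 2.36, 1.89, 1.61 and 1.09 FPKM in the long-labelled, 11.54, 12.4, 8.93, 9.44, 9.09 and 9.11 in the short-labelled and 7.40, 5.88, 4.28, 3.91, 3.81 and 3.98 in the both-labelled series, against 6.81, 4.35, 4.51, 2.55, 2.29 and 1.53 in the control series. Short-labelled values were all above the control range, and long-labelled values were below control at each time. PLK3 was lower in the long-labelled series (-0.63 ± 0.17, limma adjusted p = 0.00377), and higher by 1.67 ± 0.17 in the short-labelled (adjusted p = 9.01e-08) and 0.59 ± 0.17 in the both-labelled series (adjusted p = 0.00492).

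RPS27L, a ribosomal protein S27 paralogue, had 65.8 to 80.9 FPKM (median 75.4) in the long-labelled, 150.5 to 184 FPKM (median 166) in the short-labelled and 138 to 203 FPKM (median 164) in the both-labelled series, against 98.1 to 121 FPKM (median 112) in the control series, with no overlap with control in any of them. The long-labelled difference was -0.54 ± 0.052 (limma adjusted p = 9.91e-08), the short-labelled 0.67 ± 0.052 (adjusted p = 3.56e-09) and the both-labelled 0.63 ± 0.052 (adjusted p = 9.01e-09). Reads it shares with RPS27 could have been split between the genes. EPHA2, an ephrin receptor kinase, had 17.2 to 29.7 FPKM (median 27.7) in the long-labelled, 59.9 to 76.4 FPKM (median 68.6) in the short-labelled and 54.2 to 66.3 FPKM (median 56.8) in the both-labelled series, against 31.2 to 39.4 FPKM (median 34.5) in the control series, again without overlap. EPHA2 differed by -0.38 ± 0.10 in the long-labelled (limma adjusted p = 0.00514), 1.07 ± 0.10 in the short-labelled (adjusted p = 7.05e-08) and 0.83 ± 0.10 in the both-labelled series (adjusted p = 1.91e-06). ZMAT3, an RNA-binding zinc-finger protein, had 1.21 to 3.77 FPKM (median 2.80) in the long-labelled, 7.11 to 13.5 FPKM (median 10.9) in the short-labelled and 7.85 to 11.47 FPKM (median 10.6) in the both-labelled series, against 4.69 to 7.5 FPKM (median 6.25) in the control series. All long-labelled libraries lay below the control range, and the short-labelled range overlapped it at 1 h. ZMAT3 differed by -1.22 ± 0.16 in the long-labelled (limma adjusted p = 5.77e-06), 0.79 ± 0.16 in the short-labelled (adjusted p = 0.000374) and 0.75 ± 0.16 in the both-labelled series (adjusted p = 0.000597).

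FBXO22, a substrate receptor of a ubiquitin ligase, swung between libraries, with 25.5, 29.9, 22.8, 15.0, 17.1 and 14.0 FPKM in the short-labelled and 35.1, 9.68, 28.6, 13.6, 11.4 and 5.65 in the both-labelled series, against 13.6, 4.41, 4.49, 10.9, 5.33 and 7.25 in the control series. The short-labelled values stayed above the control range and the both-labelled values did not. The differences were 1.59 ± 0.34 in the short-labelled (limma adjusted p = 0.000596) and 1.10 ± 0.34 in the both-labelled series (adjusted p = 0.0101, and 0.0735 without the 1 h libraries). The long-labelled difference of 0.43 ± 0.34 was not called (adjusted p = 0.313).

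GDF15, a secreted cytokine of the TGF-beta family, was the member furthest below control, and the only one lower in all 3 series. It had 143, 72.8, 49.98, 43.4, 47.6 and 51.7 FPKM in the long-labelled, 72.0, 50.9, 48.9, 49.2, 53.5 and 56.7 in the short-labelled and 108, 72.2, 61.2, 61.9, 60.8 and 64.8 in the both-labelled series, against 333, 249, 268, 230.0, 268 and 287 in the control series. Every other library lay below the lowest control library, and the mean was 0.250 of the control mean in the long-labelled, 0.203 in the short-labelled and 0.262 in the both-labelled series. The differences were -2.08 ± 0.13 in the long-labelled (limma adjusted p = 5.87e-10), -2.22 ± 0.13 in the short-labelled (adjusted p = 1.22e-10) and -1.88 ± 0.13 in the both-labelled series (adjusted p = 1.35e-09). NINJ1, a cell surface protein that ruptures the membranes of dying cells, had 14.9, 19.9, 17.8, 13.2, 8.39 and 5.94 FPKM in the short-labelled and 24.1, 22.3, 21.7, 17.5, 17.0 and 12.9 in the both-labelled series, against 31.1, 32.6, 35.5, 30.7, 27.6 and 29.9 in the control series. Both ranges lay below the control range, with differences of -1.25 ± 0.15 in the short-labelled (limma adjusted p = 1.57e-06) and -0.65 ± 0.15 in the both-labelled series (adjusted p = 0.00141), while the long-labelled difference was -0.13 ± 0.15 (adjusted p = 0.495). KITLG, the ligand of the KIT receptor, had 14.9, 14.7, 15.0, 13.7, 12.4 and 11.7 FPKM in the long-labelled and 21.9, 22.4, 19.02, 16.9, 14.1 and 11.2 in the short-labelled series, against 26.1, 25.9, 20.03, 24.4, 23.8 and 22.4 in the control series. It was lower in the long-labelled series (-0.74 ± 0.1, limma adjusted p = 6.6e-06), without overlap, and in the short-labelled series (-0.38 ± 0.1, adjusted p = 0.00291). The both-labelled difference of KITLG was -0.23 ± 0.1 (adjusted p = 0.0589). Of its 2 transcripts, 1 was listed at 0 in all both-labelled libraries and in the short-labelled libraries before 6 h, against 4.90 to 6.53 FPKM in control. The other held 21.9 FPKM at 0 h in the short-labelled and 24.3 in the both-labelled series, against 21.2 in control. At 6 h it held 9.96, 14.05 and 17.1 FPKM. An exact 0 can be a failed estimate, and its part in the level differences was not tested.

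Set against each other, the short-labelled and long-labelled series separated 10 genes that were higher than control in one and lower in the other: TP53INP1, FDXR, PLK3, ZMAT3, TNFRSF10B, TP53I3, TNFRSF10A, EPHA2, RPS27L and DDB2. Their differences between the 2 series ran from 1.20 for DDB2 to 2.72 for TP53INP1. The 8 genes that were higher than control in all 3 series, APAF1, DRAM1, PLK2, POLH, PRKAB1, SESN1, SESN2 and TRIAP1, were also higher in the short-labelled than in the long-labelled series, by 0.33 for TRIAP1 up to 1.97 for SESN1. For this pattern and for that of the 10 genes above, the share of all genes was not counted. The call of APAF1 (0.59 ± 0.24, limma adjusted p = 0.0414) was lost without any 1 of the short-labelled libraries of 0, 0.5, 1 and 6 h or the long-labelled libraries of 0, 0.5, 2 and 4 h, up to 0.103. FAS (2.28 ± 0.19, limma adjusted p = 7.85e-09), C12orf5, FBXO22, RRM2B, XPC, AEN and PHLDA3 were higher in the short-labelled series too, and the FBXO22 call was lost without the 0.5 h libraries (adjusted p = 0.0532). KITLG (0.36 ± 0.1) and STEAP3 (0.63 ± 0.079) were also higher (limma adjusted p = 0.00436 and 1.64e-06), and both were lower than control in the long-labelled series. NINJ1 was lower (-1.11 ± 0.15, adjusted p = 6.06e-06), as was GADD45A. The 4 members not called were CMBL (-0.60), GDF15 (-0.14), TP53BP2 (-0.19) and PERP (0.65).

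**Figure D3:**
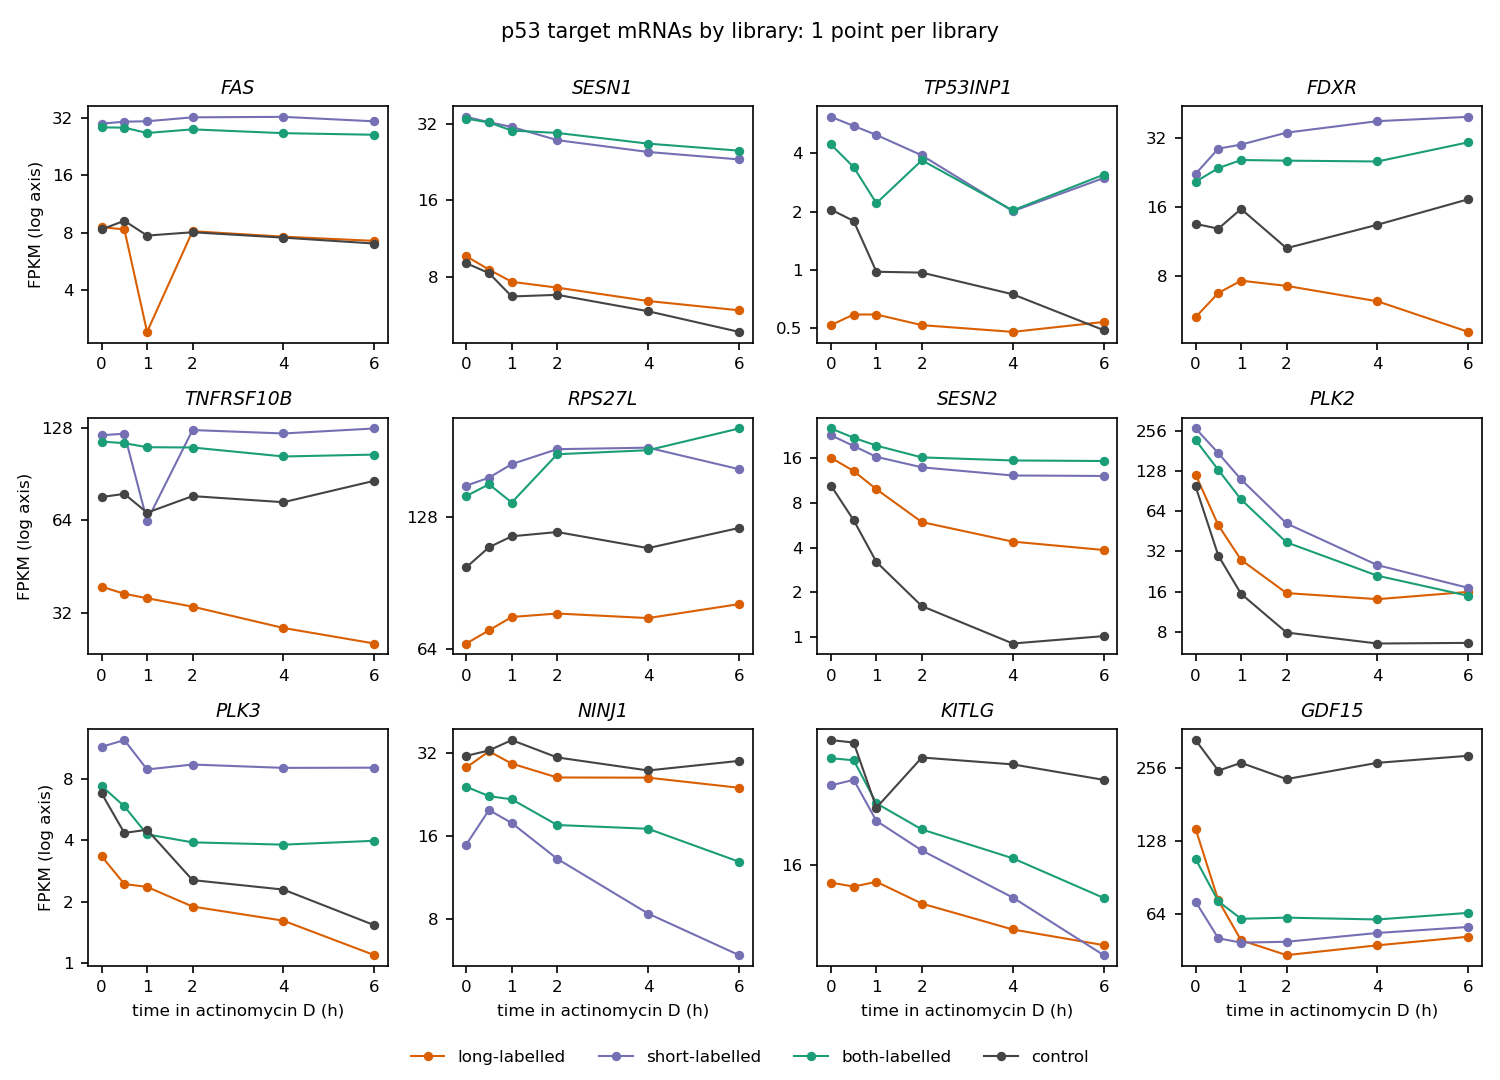
FPKM by hours in actinomycin D, on a logarithmic axis, for 12 members with 1 point per library and 1 line for each of the long-labelled, short-labelled, both-labelled and control series. The short-labelled and both-labelled lines of FAS and SESN1 run well above control at all 6 times, FDXR and RPS27L have the long-labelled series below and the short-labelled and both-labelled series above control, as has TNFRSF10B except in the short-labelled library of 1 h, SESN2 and PLK3 separate from control with time, NINJ1 and KITLG decline in the short-labelled series, and GDF15 is lower in all 3.

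The same libraries give the course of each mRNA after transcription was blocked. In the control series the slope of 5 members was above 0 and that of 10 below, beside 30.1% and 16.7% of all genes tested. Slopes are in log2 units per h relative to the median of the tested genes, so a positive slope marks an mRNA that rose against the library median. It is no half-life, and 62% of all genes had a positive control slope. The median slope of the members was -0.0015, where all genes had 0.044.

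PLK2 and SESN2 had the lowest control slopes. The slope of PLK2 was -0.47 ± 0.14 log2 units per h (limma adjusted p = 0.00968), and 6.7% of its FPKM was left at 6 h. SESN2 had a slope of -0.46 ± 0.075 (adjusted p = 6.24e-05), with 9.8% left. PLK3 (-0.25 ± 0.045), AEN (-0.24 ± 0.066), TP53INP1 (-0.23 ± 0.061) and POLH (-0.17 ± 0.032) followed (limma adjusted p = 0.000144, 0.00586, 0.00535 and 0.00022). Shallower negative slopes were those of PHLDA3 (-0.093), TNFRSF10A (-0.088), SESN1 (-0.077) and PRKAB1 (-0.065). Positive slopes were those of FDXR (0.10), STEAP3 (0.095), RPS27L (0.083), TP53I3 (0.075) and DRAM1 (0.063). They lay between percentiles 56.7 (DRAM1) and 71.7 (FDXR) of the control slopes of all genes. Among members not called, PERP (0.11) and TNFRSF10B (0.082) had the highest slopes and TP53BP2 (-0.19) and APAF1 (-0.12) the lowest. Without the control 0 h library 9 members were called, and PLK2 (slope -0.28, adjusted p = 0.102), AEN (adjusted p = 0.0553), PHLDA3 (0.0987), PRKAB1 (0.105), FDXR (0.0693) and TP53I3 (0.175) were not. Without the control 6 h library TP53INP1 (0.0654), FDXR (0.664), RPS27L (0.0571) and STEAP3 (0.0894) were not called, and none of the 5 positive slopes was called on uncentred values. Under quantile normalisation the slope of RPS27L turned to -0.0011 (adjusted p = 0.969).

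Sites in the 3′ UTR were read from GENCODE v29 transcripts (GRCh38) for 32 tested members and 7426 tested genes. The median 3′ UTR length was 1260 bases in the members and 998 in all genes. Shares with a site were not matched for length. The pentamer ATTTA, the DNA form of the AUUUA core of AU-rich elements, was present in the sense of the mRNA in 27 of 32 members (84.4%) and in 68.9% of all genes, with medians of 2.16 and 1.61 per kb. The longer element TTATTTATT, which contains the pentamer, was present in 8 members (25.0%), AEN, GDF15, PLK2, PLK3, RPS27L, RRM2B, TNFRSF10B and TP53INP1, and in 7.93% of all genes. One such site is shown for 4 members, with the element in capitals and 10 bases on either side.
PLK2, chr5:58454066-58454094, minus strand: aataaactttTTATTTATTacagcccaaa
PLK3, chr1:44805900-44805928, plus strand: tggaccacttTTATTTATTgtcagacact
AEN, chr15:88631182-88631210, plus strand: tgcctgacctTTATTTATTtattaacagc
GDF15, chr19:18389054-18389082, plus strand: tataagtctgTTATTTATTattaatttat
Of the 8 members with this element, PLK2, PLK3, AEN and TP53INP1 had negative and RPS27L a positive control slope that was called. Those of TNFRSF10B (0.082), GDF15 (0.052) and RRM2B (0.019) were not called (limma adjusted p = 0.094, 0.542 and 0.864). The 3′ UTR of SESN2, of 1689 bases, held no ATTTA, and those of NINJ1 and FDXR held none either.

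Slopes were compared between series with time as a factor. In the long-labelled series no member was called as differing in slope from control. Of all genes, 1.25% had a higher and 0.585% a lower slope. An unadjusted p under 0.05 in limma was found for 8 members and 13.4% of all genes. In simulated data this comparison recovered 22 of 100 slope differences of 0.1 log2 units per h and 42 of 100 of 0.2. A missing call is thus no evidence of an equal slope. The largest long-labelled slope differences were those of TP53INP1 (0.26 ± 0.075) and SESN2 (0.17 ± 0.068) above control, and of CMBL (-0.20 ± 0.15) and ZMAT3 (-0.17 ± 0.066) below it. In the short-labelled series 4 members had a higher and 3 a lower slope, beside 4.21% and 4.64% of all genes. The both-labelled series had 2 and 2, beside 3.83% and 3.22%. Between the short-labelled and long-labelled series 3 members had a higher and 4 a lower slope, beside 2.23% and 4.07%. The medians of the slope differences from control were 0.017 in the long-labelled, -0.0010 in the short-labelled and 0.0019 in the both-labelled series.

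SESN2 had the largest slope difference among the members called. Its slope was -0.29 log2 units per h in the long-labelled, -0.093 in the short-labelled and -0.07 in the both-labelled series, against -0.46 in the control series. At 6 h 24.1%, 53.4% and 60.5% of its FPKM at 0 h were left in these 3 series, against 9.8% in the control series. The slope exceeded control by 0.37 ± 0.068 in the short-labelled (limma adjusted p = 0.00371) and 0.39 ± 0.068 in the both-labelled series (adjusted p = 0.00331). These calls were kept without any 1 time or library and were lost when only the 2 series compared were fitted (adjusted p = 0.109 and 0.118). PLK3 had a slope 0.24 ± 0.049 above control in the short-labelled series (limma adjusted p = 0.0059) and 0.18 ± 0.049 above in the both-labelled series (adjusted p = 0.0435), with 78.9% left at 6 h in the short-labelled and 53.8% in the both-labelled series, against 22.4% in the control series. The short-labelled call of PLK3 was lost without the short-labelled 6 h library (adjusted p = 0.0905), the control 6 h library (0.0852), the 0 h libraries (0.0534) or the 6 h libraries (0.141), and the both-labelled call was lost in 22 of 30 such fits, up to 0.5 without the 6 h libraries. Each call was also lost when only the 2 series compared were fitted (limma adjusted p = 0.117 and 0.168). The both-labelled call was lost with a pseudocount of 1 (0.086) and with a straight line in time (0.14) too.

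NINJ1 and KITLG had lower slopes, relative to the library median, in the short-labelled and both-labelled series than in the control series. The slope of NINJ1 was -0.0084, -0.23 and -0.099 in the long-, short- and both-labelled series, against 0.023 in the control series, and 39.9% of its FPKM was left at 6 h in the short-labelled series, against 95.9% in the control series. Its slope differences were -0.25 ± 0.033 in the short-labelled (limma adjusted p = 0.0003) and -0.12 ± 0.033 in the both-labelled series (adjusted p = 0.0389). The short-labelled call was lost without the 6 h libraries (adjusted p = 0.0612). The both-labelled call was lost in 11 of 30 fits that left out 1 time or 1 library, up to 0.542 without the 6 h libraries. It was lost without either 6 h library (0.342 without the both-labelled, 0.372 without the control one) and without the both-labelled 0 h library (0.116). Of all 42 alternatives 17 lost it, among them quantile normalisation (0.13), a straight line in time (0.0817) and no centring (0.0685). KITLG had 51.3% left in the short-labelled and 57.7% in the both-labelled series, against 85.5% in the control series, with slope differences of -0.15 ± 0.024 in the short-labelled (limma adjusted p = 0.00112) and -0.13 ± 0.024 in the both-labelled series (adjusted p = 0.00592). Without the 6 h libraries these were at adjusted p = 0.0539 and 0.109, and the both-labelled call was also lost without the both-labelled (0.0588) or control (0.0538) 6 h library alone. When only the 2 series compared were fitted, KITLG lost its short-labelled (limma adjusted p = 0.068) and both-labelled calls (0.0921). NINJ1 then lost its both-labelled call (0.116) and kept its short-labelled call.

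DDB2 (0.081 ± 0.019), TNFRSF10A (0.074 ± 0.019) and PHLDA3 (-0.11 ± 0.032) had further slope differences from control in the short-labelled series (limma adjusted p = 0.0151, 0.0215 and 0.0451). None of the 3 calls held without the 6 h libraries (adjusted p = 0.183, 0.152 and 0.0864) or without the short-labelled 0 h library (0.0508, 0.0581 and 0.131). Without the 6 h libraries 1 member was called in each of the short-labelled, both-labelled and short against long comparisons. Among members not called, the slope differences of C12orf5 (0.18) and CMBL (0.17) were the highest and those of PERP (-0.17) and PLK2 (-0.14) the lowest in the short-labelled series. In the both-labelled series they were C12orf5 (0.36) and CMBL (0.20), and FBXO22 (-0.31) and PERP (-0.16).

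In the short-labelled against the long-labelled series, TNFRSF10A (0.15 ± 0.019, limma adjusted p = 0.000302), FDXR (0.18 ± 0.051, adjusted p = 0.0495) and DDB2 (0.08 ± 0.019, adjusted p = 0.0225) had higher slopes. NINJ1 (-0.22 ± 0.033, limma adjusted p = 0.000936), GADD45A (-0.17 ± 0.043, adjusted p = 0.0352), PRKAB1 (-0.11 ± 0.026, adjusted p = 0.0225) and KITLG (-0.10 ± 0.024, adjusted p = 0.0219) had lower slopes. At 6 h 78.8% of the FPKM of TNFRSF10A was left in the short-labelled series, against 40.3% in the long-labelled series, and FDXR stood at 177.8% of its value at 0 h in the short-labelled and at 86.0% in the long-labelled series. The call of TNFRSF10A was lost without the 6 h libraries (adjusted p = 0.058), that of NINJ1 likewise (0.0822), and those of FDXR (slope difference 0.076, adjusted p = 0.685), DDB2 (adjusted p = 0.378), KITLG (0.158) and GADD45A (0.109) without the long-labelled 6 h library alone. PRKAB1 was not called without the short-labelled 0 h library (0.0673). Of 30 fits that left out 1 time or 1 library, 24 lost the call of FDXR. Members not called included CMBL (0.37) and SESN2 (0.20) with higher and PERP (-0.29) and PLK2 (-0.25) with lower slopes.

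**Figure D4:**
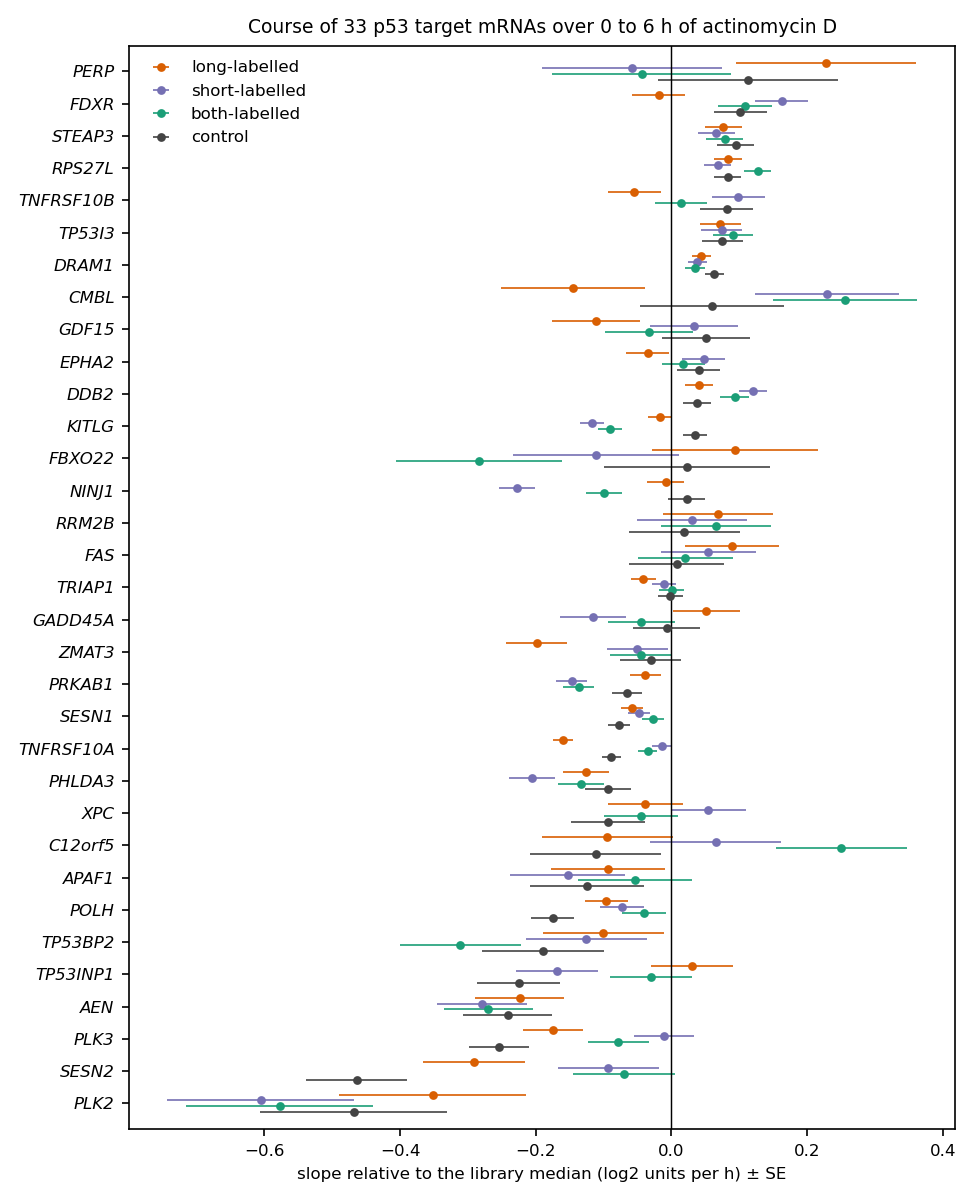
Slopes of the 33 tested members over 0 to 6 h of actinomycin D, in log2 units per h relative to the library median, with SE bars, for the long-labelled, short-labelled, both-labelled and control series from top to bottom within each gene; genes are ordered by the control slope. SESN2 and PLK3 have control slopes below those of the short-labelled and both-labelled series, and NINJ1 and KITLG have control slopes above them.

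The core of the p53 response was set beside these genes as a list of 16 regulators and classical targets. It too was chosen with earlier results of these data known, and 14 of its genes were tested. In level, 8 were higher and 1 lower in the short-labelled series, 10 higher and none lower in the both-labelled series, and 3 higher and 2 lower in the long-labelled series. Of all genes, 32.7% were higher and 30.7% lower in the short-labelled, 33% and 29% in the both-labelled and 27.1% and 24.1% in the long-labelled series. CDKN1A, the inhibitor of cyclin-dependent kinases, differed by -0.46 ± 0.11 in the long-labelled, 1.93 ± 0.11 in the short-labelled and 1.64 ± 0.11 in the both-labelled series (limma adjusted p = 0.00211, 5.22e-11 and 5.84e-10). SFN, a 14-3-3 protein of cell cycle arrest, differed by 1.42 ± 0.074 in the short-labelled and 1.28 ± 0.074 in the both-labelled series (adjusted p = 1.47e-11 and 6.5e-11), and by -0.035 ± 0.074 in the long-labelled series (adjusted p = 0.718). PMAIP1, the BH3-only protein NOXA, was higher by 2.74, 2.67 and 2.81 in the long-, short- and both-labelled series. In slope, 2 core genes were higher than control in the long-labelled, 3 higher and 1 lower in the short-labelled and 2 higher in the both-labelled series, beside 1.25%, 4.21% and 4.64%, and 3.83% of all genes. In the control series 3 had a positive and 6 a negative slope, beside 30.1% and 16.7%.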

How the data were processed

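Cytoplasmic RNA of U2OS cells was sequenced in 24 libraries, 6 times in each of 4 siRNA series. The submitters' processing notes name TopHat 1.3.3 and the build hg19. FPKM per RefSeq transcript are as deposited by the authors, made with a tool not given in the sources used here, and were summed per gene. Among 9937 genes averaging 1 FPKM or more, 503 with a missing value and 1574 with a 0 next in time to at least 1 FPKM in the same series (a possible failed estimate) were left out, leaving 7860. The median of these genes was subtracted from log2(FPKM + 0.1) in each library. Fold changes on this scale understate those of low genes.

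All 24 libraries were fitted in limma 3.58.1 (R 4.3.3) with a mean-variance trend. Levels used time as a factor and series; slope differences added series by hours; control slopes used a straight line per series. Control slopes were tested against 0. The fits were tested on simulated data. Alternatives were a pseudocount of 1 or 0.01, a filter on the mean at 0.1 FPKM, at 5 FPKM or absent, zeros kept or missing, no centring, quantile normalisation, no trend, straight lines, only the series compared, and leaving out each time and library. The members and the gene lists were chosen with earlier results of these data known. Members called in a comparison are described with their values, and of those not called in it the 2 largest differences each way are named; of the core list up to 4 are named. Values of some genes are not reported here. Labels give no replicate numbers and no spike-in, and p-values cover the scatter of these libraries only, which may be technical. Depth is unknown, so no counting error is given.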

Additional observations from a re-analysis of the deposited data

Results flagged for a closer look

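In 99 courses of differences from control (33 members in 3 series of 6 times), 6 held a library far from the other 5 of its course, where chance alone gives about 1 in 20. FAS in the long-labelled library of 1 h lay at -1.60 from control (2.41 FPKM), against -0.089 to 0.11 at the other times. TNFRSF10B in the short-labelled library of 1 h lay at -0.016, against 0.64 to 0.80, and 1 of its 2 transcripts with values was listed at 0 there and at 48.3 to 74.8 FPKM at the other short-labelled times. KITLG in the long-labelled library of 1 h lay at -0.38, against -0.93 to -0.73, and the control library of that time was the lowest of its series. DRAM1 in the long-labelled library of 0 h lay at 0.59, against 0.37 to 0.44. PRKAB1 in the both-labelled library of 6 h lay at 0.72, against 1.15 to 1.23, and XPC in the both-labelled library of 0 h at 0.089, against 0.73 to 0.93.

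In 10 members the short-labelled and long-labelled series differed from control in opposite directions, each past the threshold in limma. How many of all genes do so was not counted. The difference between these series follows from their differences from control and is no further test. It was 1.20 for DDB2, 1.46 for EPHA2, 2.38 for FDXR, 2.31 for PLK3, 1.22 for RPS27L, 1.53 for TNFRSF10A, 1.79 for TNFRSF10B, 1.79 for TP53I3, 2.72 for TP53INP1 and 2.00 for ZMAT3 (largest limma adjusted p = 5.79e-09, for ZMAT3). Slopes differed between the short-labelled and long-labelled series by 0.080 log2 units per h for DDB2, 0.18 for FDXR, -0.17 for GADD45A, -0.10 for KITLG, -0.22 for NINJ1, -0.11 for PRKAB1 and 0.15 for TNFRSF10A. Each of these 7 slope calls was lost in at least 1 alternative.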

How the results depend on the processing

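All 28 short-labelled level calls were kept under every alternative run, as were 25 of 28 both-labelled, 17 of 21 long-labelled and 26 of 29 short against long level calls. Every one of the 7, 4 and 7 slope calls in the short-labelled, both-labelled and short against long comparisons was lost under at least 1 alternative. With only the series compared, the counts of members with a slope difference were 1, 0 and 0 in these comparisons, and with no filter on the mean 4, 2 and 4. A straight line in time gave 2 in the both-labelled and 3 in the short against long comparison, quantile normalisation gave 4 in the short against long comparison, and no centring gave 7 in the both-labelled comparison. Leaving out 1 time or 1 library gave 9 to 16 members with a control slope, 0 to 1 with a long-labelled, 1 to 7 with a short-labelled, 1 to 5 with a both-labelled and 1 to 8 with a short against long slope difference. The counts for level were 19 to 23 in the long-labelled, 28 to 29 in the short-labelled, 26 to 29 in the both-labelled and 27 to 30 in the short against long comparison. The control slope of RPS27L reversed to -0.0011 under quantile normalisation. Of 5809 values of single genes under alternatives, 340 lost a call, and the cause was not tested where no library is named. Uncentred medians lay below control by 0.007 to 0.073 log2 units in the long-labelled, 0.037 to 0.121 in the short-labelled and 0.023 to 0.114 in the both-labelled series. Time as a factor matches the libraries of each time across the series, and the labels carry no replicate numbers for a further block. Depth is unknown, and the precision rests on 6 libraries per series.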
